A study of Mus musculus with 8 samples.

Results

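Ryr2 encodes the cardiac ryanodine receptor, and its transcript is one of the main sources of circular RNA (circRNA) in the mouse heart libraries studied here. A circRNA forms by back-splicing: the 3′ end of an exon (the donor) is joined to the 5′ end of that exon or of one upstream (the acceptor). Every circle that the deposited table assigned to Ryr2 was taken, which gave 150 of 27391 circles. Of these, 147 were exonic and 3 were typed as intronic circles (ciRNA). Ryr2 ranked 2nd of 6492 host genes by number of different circles, after Ttn with 160, and 7th by back-spliced reads, which are reads spanning the junction that closes a circle.

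The ryanodine receptor is the channel through which the sarcoplasmic reticulum releases calcium. In cardiomyocytes, calcium that enters through L-type channels opens it, and the released calcium starts contraction, so that channel, exchanger, pump and buffer proteins share one cycle. Inherited changes of the human receptor are known for arrhythmia under adrenergic stress. A circRNA has no free ends and is therefore resistant to exonucleases, and 2 circles that share an acceptor differ only in where the downstream donor lies.

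The libraries came from heart tissue of male wild-type (WT) mice. One group of 4 mice had undergone transverse aortic constriction (TAC), which narrows the aortic arch and raises the pressure against which the left ventricle ejects, and the other 4 had undergone a sham operation. Tissue was taken 8 weeks after the operation, RNA came from a kit extraction, and library construction was done by a service company. Both groups share the WT genotype, the labels name no transgene, and they do not give the age of the mice.

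Depth differed widely between libraries. TAC replicates 1 to 4 held 33132, 1119, 21074 and 36120 back-spliced reads, and sham replicates 1 to 4 held 40796, 3963, 17890 and 100142. TAC replicate 2 and sham replicate 2, both under 5000 reads, also stood apart in length. The spliced length at the median read was 334 nt in TAC replicate 2 and 498 to 542 nt in the other TAC libraries, against 491 nt in sham replicate 2 and 353 to 394 nt in the other sham libraries. Circles resting on 1 read made up 56.6 to 64.3% of those seen in a TAC library, against 44.9 to 55.3% in sham replicates 1 to 3 and 5.61% in sham replicate 4. Tests were also run without both libraries under 5000 reads, and values that moved strongly are given. Heart muscle markers were present: 16 of 20 cardiomyocyte markers had circles (Tnni3, Myl3, Nebl and Pln were at 0), with summed levels of 231 to 1580 normalised reads in TAC and 153 to 763 in sham. A normalised read is the deposited unit, in which a circle's reads have been divided by the size factor of its library.

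The junctions of the circles described most fully are written out to make plain which exon ends meet. Each line holds the last 30 bases of the donor exon in lower case and the first 30 bases of the acceptor exon in capitals, 5′ to 3′ on the transcript strand. They were read from GENCODE M21 transcript ENSMUST00000021750.14 (GRCm38, the assembly that mm10 names), not from the libraries, and the gene lies on the minus strand of chromosome 13.

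Exons 24 to 29: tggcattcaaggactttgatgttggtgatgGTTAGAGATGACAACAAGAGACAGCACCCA

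Exons 24 to 27: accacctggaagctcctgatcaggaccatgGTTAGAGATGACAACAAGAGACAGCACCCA

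Exons 59 to 62: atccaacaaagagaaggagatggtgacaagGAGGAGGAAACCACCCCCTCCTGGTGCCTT

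Exons 11 to 13: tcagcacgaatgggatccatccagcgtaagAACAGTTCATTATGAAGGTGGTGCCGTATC

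Exons 11 to 16: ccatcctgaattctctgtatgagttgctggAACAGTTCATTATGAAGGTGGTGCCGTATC

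Exons 13 to 16: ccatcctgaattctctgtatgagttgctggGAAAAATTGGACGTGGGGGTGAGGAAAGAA

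The circles of exons 24 to 29 and 24 to 27 carry the same capitals, as do those of exons 11 to 13 and 11 to 16, whereas exons 11 to 16 and 13 to 16 share the lower-case donor. The acceptor shared by the most reads belongs to exon 24, 104 nt long, at chr13:11785038-11785141 (mm10). Its whole sequence, shown because the circles of exons 24 to 29 and 24 to 27 both begin with it, is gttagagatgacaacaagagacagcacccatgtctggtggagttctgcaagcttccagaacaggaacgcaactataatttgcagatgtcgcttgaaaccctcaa.

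Ryr2 circles covered nearly the whole coding sequence but were concentrated at few sites. The gene spans 553.8 kb (chr13:11553102-12106945), and its transcript has 105 exons, all of which hold coding sequence. Both ends of all 147 exonic circles lay at annotated exon borders of that transcript. Exons 1, 104 and 105 were in no circle. In all, 52 exons served as acceptors and 65 as donors, 33 served as both and 21 as neither. No circle of another gene in the table lay in the locus.

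Splice sites were widely shared. Of the 147 exonic circles, 131 shared their acceptor with another Ryr2 circle, 115 shared their donor and 102 shared both, while 3 shared neither. The 5 acceptors with the most reads together took 75.2% of the exonic reads. They were exon 24 with 9 circles and 812 reads (39.0%), exon 59 with 1 circle and 386 reads (18.5%), exon 11 with 6 circles and 163 reads, and exons 6 and 55 with 7 circles and 103 reads each. The 5 leading donors (exons 27, 62, 29, 16 and 13) took 68.8%. Exon 59 and exon 24 thus differed in use: exon 59 was joined to 1 donor, whereas exon 24 was joined to 9, of which exons 29 and 27 took 355 and 442 reads.

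**Figure D1:**
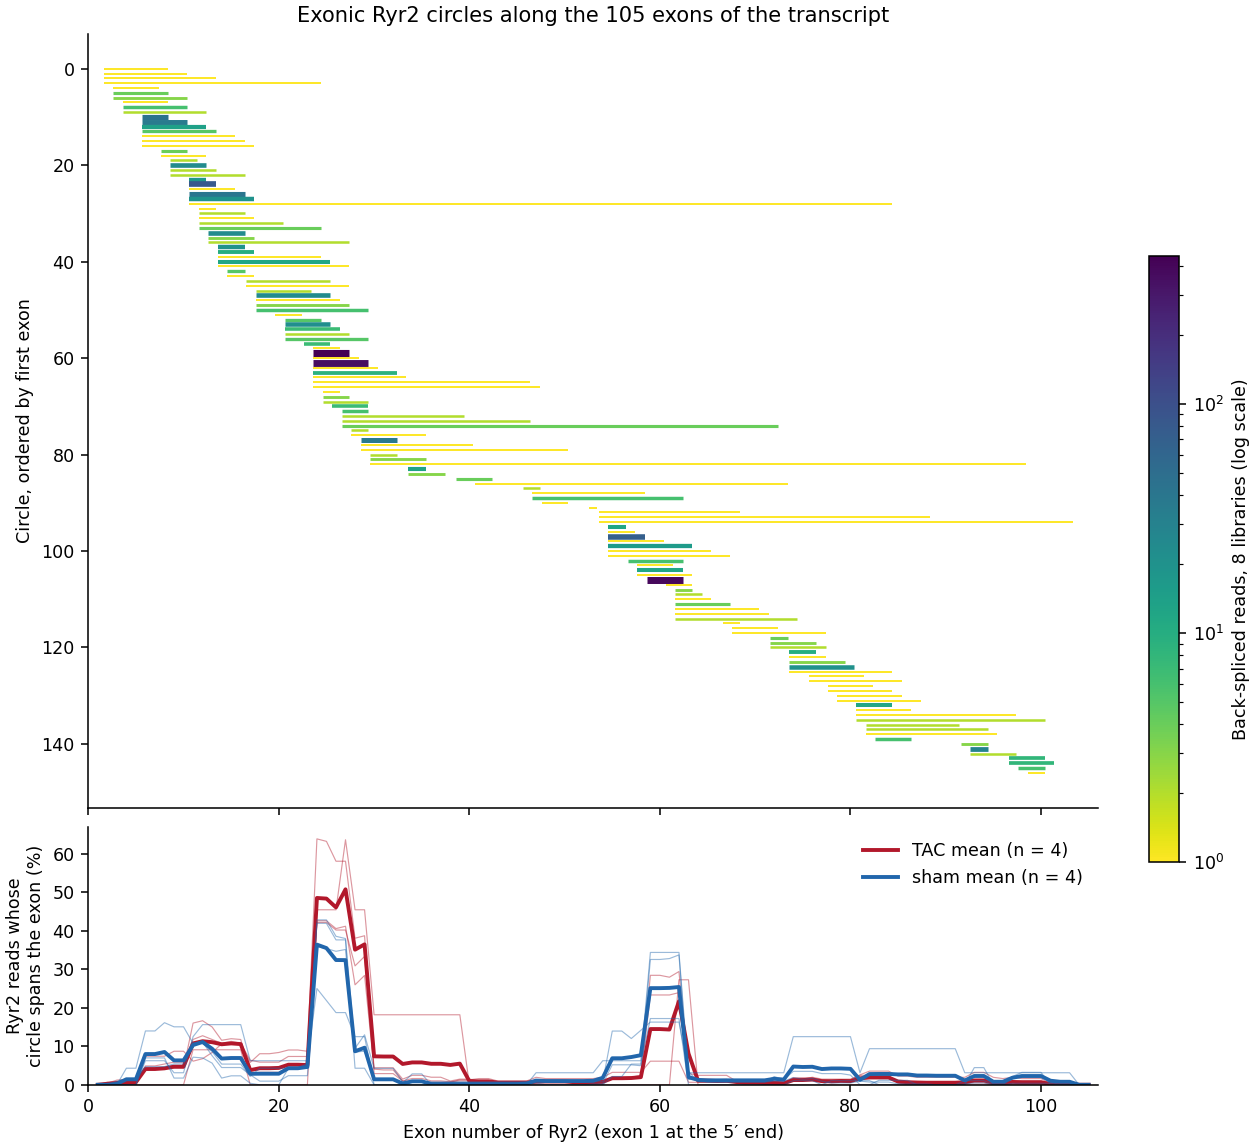
The upper panel draws each of the 147 exonic Ryr2 circles as a line over the exons it spans (x axis, exon number), ordered by first exon and coloured by its back-spliced reads over 8 libraries on a log scale. The lower panel gives, for each exon, the percentage of a library's exonic Ryr2 reads whose circle spans it (thin lines: libraries, thick lines: means of 4 TAC and 4 sham libraries): both group means peak over exons 24 to 27, and over exon 28 the TAC libraries stand at 25.96 to 45.5% and the sham libraries at 4.30 to 12.5%.

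Circles that were rarely seen made up most of the count and little of the reads. Of the 150 circles, 89 (59.3%) were seen in 1 library, against 61.7% of all circles in the table, and 65 rested on 1 read in total. At the other end, 25 were seen in at least 4 libraries and 2 in all 8. The 3 circles with the largest mean level held 56.7% of the 2088 Ryr2 reads, and the leading 8 held 66.6%. The 3 intronic circles had 5 reads together, in TAC replicates 1 and 4 and sham replicate 1.

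Ryr2 circles were longer than the table's typical circle. They held a median of 6 exons against 4 for all circles, and a median spliced length of 696 nt against 502 nt. Lengths ran from 164 nt, a circle of exon 53 alone and the only single-exon one, to 10700 nt, a circle of exons 11 to 84 with 74 exons and 1 read. The 41 circles of 10 or more exons held 77 reads (3.70% of exonic reads), and none was seen in more than 4 libraries. The interior exons of a circle are inferred from the annotation, since only the junction is read. A length that is a multiple of 3, which would keep one reading frame round the circle, was found for 47 circles (32.0%; 38.0% over all circles of the table) and for 0 of the leading 8.

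Exons used as back-splice sites were flanked by longer introns. The intron before the 52 acceptor exons had a median of 3400 nt, against 1588 nt before the 52 other exons that have one. The intron after the 65 donor exons had a median of 2416 nt, against 1489 nt after the 39 others, and the median over all introns of the transcript was 2160 nt. The circle of exons 24 to 29 lay between introns of 5117 and 7266 nt, that of exons 24 to 27 between 5117 and 8416 nt, and that of exons 59 to 62 between 2278 and 4718 nt. Exons 13 to 16 had 16969 nt before and 13295 nt after it. These are properties of the annotation and were not tested.

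Together, the TAC libraries showed more different Ryr2 circles than the sham libraries, as they did over the whole table. TAC replicates 1 to 4 had 64, 5, 48 and 75 different Ryr2 circles on 312, 11, 204 and 495 Ryr2 reads, and sham replicates 1 to 4 had 53, 14, 23 and 27 on 425, 32, 93 and 516. Of the 150 circles, 122 were seen in TAC libraries and 74 in sham libraries. Thus 76 circles were seen in TAC libraries alone, 28 in sham libraries alone and 46 in both. Over the whole table, too, more of the 27391 circles were seen in TAC (20657) than in sham (14235), on fewer reads (91445 and 162791). The Ryr2 counts are therefore not read as a trait of Ryr2. Brought to 93 Ryr2 reads per library, TAC replicates 1, 3 and 4 were expected to show 29.98, 30.4 and 27.7 different circles and sham replicates 1, 3 and 4 to show 24.1, 23 and 19.7. Between these libraries the groups did not overlap at equal depth, but with 3 libraries a side no exact test could reach 0.05. Nor was this particular to Ryr2. Brought to 1119 reads over all circles of the table, TAC replicates 1 to 4 were expected to show 851, 567, 843 and 870 different circles. Sham replicates 1 to 4 were expected to show 821, 789, 806 and 776, so TAC replicate 2 was the lowest of all. Sham replicate 4 had 1 of its 27 Ryr2 circles on a single read, where the other libraries with over 90 Ryr2 reads had 34.8 to 56.3%, and the part of that difference in the result was not tested.

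Summed over its circles, Ryr2 stood at 232, 63.5, 210.0 and 315 normalised reads in TAC replicates 1 to 4, and at 161, 145, 77.0 and 100.4 in sham replicates 1 to 4. All TAC libraries but replicate 2 exceeded every sham library. The means were 205 ± 104.6 in TAC and 121 ± 39.0 in sham (SD, n = 4 each), and limma gave a log2 fold change of 0.61 ± 0.40 (SE, adjusted p = 0.9995), which did not pass. In the edgeR quasi-likelihood test on the recovered reads it was 0.44 ± 0.63 (adjusted p = 0.723). Without TAC replicate 2, limma called the sum higher in TAC (1.10, adjusted p = 0.0388), as it did without both libraries under 5000 reads (1.21, adjusted p = 0.0330). The edgeR test did not call it in either case (0.82, adjusted p = 0.279, and 0.71 ± 0.35, adjusted p = 0.159). Of all host sums limma called 1 of 2967 (0.0337%), without TAC replicate 2 it called 0.95%, and without both libraries under 5000 reads 6.06%. Circles of the 16 cardiomyocyte markers summed to a mean of 973 in TAC and 336 in sham. Of these, Slc8a1 alone averaged 548 in TAC and 105.9 in sham, whereas Atp2a2 averaged 8.39 and 21.5. Fibroblast markers summed to means of 16.9 in TAC and 16.7 in sham, endothelial to 39.1 and 28.6, and leukocyte to 28.6 and 26.7. Smooth muscle and pericyte markers summed to 19.7 and 13.2, Schwann and neuronal to 1.23 and 3.31, and atrial to 0.318 and 0. The part of cell make-up in the result was not tested. In bulk tissue, fewer cells of a type and less RNA per cell cannot be told apart.

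As a share of all back-spliced reads, Ryr2 took 0.942, 0.983, 0.968 and 1.37% in TAC replicates 1 to 4 and 1.04, 0.807, 0.520 and 0.515% in sham replicates 1 to 4. Sham replicate 1 lay above 3 TAC libraries, so the groups overlapped. The means of 1.07 ± 0.204% in TAC and 0.721 ± 0.254% in sham (SD, n = 4 each) differed by 0.345 percentage points (exact permutation test over 70 splits, two-sided, p = 0.114). Sham replicate 1 was the only sham library above any TAC library, so leaving it out fixed a separation of the groups in advance. The difference was then 0.452 percentage points, and its exact p of 0.0286, the smallest that test can give, carries no weight. With any other library left out the exact p was 0.114 to 0.229, and without both libraries under 5000 reads it was 0.3.

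The circle of exons 24 to 29 (880 nt, chr13:11759671-11785141) had the largest mean level and the largest difference among the 3 leading circles. It had 110, 3, 50 and 113 reads in TAC replicates 1 to 4, and 28, 4, 2 and 45 in sham replicates 1 to 4. In normalised reads these were 81.8, 17.3, 51.5 and 71.9 in TAC, against 10.6, 18.2, 1.66 and 8.75 in sham. The 3 deeper TAC libraries exceeded every sham library, and TAC replicate 2 lay just under sham replicate 2. The means were 55.6 ± 28.5 in TAC and 9.80 ± 6.79 in sham (SD, n = 4 each). With limma the log2 fold change was 2.67 ± 1.05 (adjusted p = 0.834), which did not pass. That SE and p follow the trend of spread with level over all circles, not its own spread between mice. With edgeR on the recovered reads it was 2.52 ± 0.82 (adjusted p = 0.0270), a call that was lost when any library but TAC replicate 2 or sham replicate 2 was left out (2.12 to 2.65, adjusted p = 0.111 to 0.258).

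The edgeR call also depended on how scaling was done. It was lost with TMM factors taken over all circles before the filter on low counts (2.65, adjusted p = 0.197), under which edgeR called 3 circles in all in place of 94. Without TAC replicate 2 alone limma called the circle higher in TAC (3.15 ± 0.64, adjusted p = 0.000251). Without both libraries under 5000 reads the fold change was 3.58 ± 0.64 with limma (adjusted p = 0.0288) and 2.97 ± 0.50 with edgeR (adjusted p = 0.000769). Length moved with the groups: circles over 800 nt held 24.7, 9.92, 20.7 and 18.6% of all reads in TAC replicates 1 to 4, and 5.54, 20.9, 4.77 and 4.38% in sham replicates 1 to 4. With each library's length trend taken out, the limma log2 fold change of this circle was 1.502 ± 0.97 (adjusted p = 0.629).

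**Figure D2:**
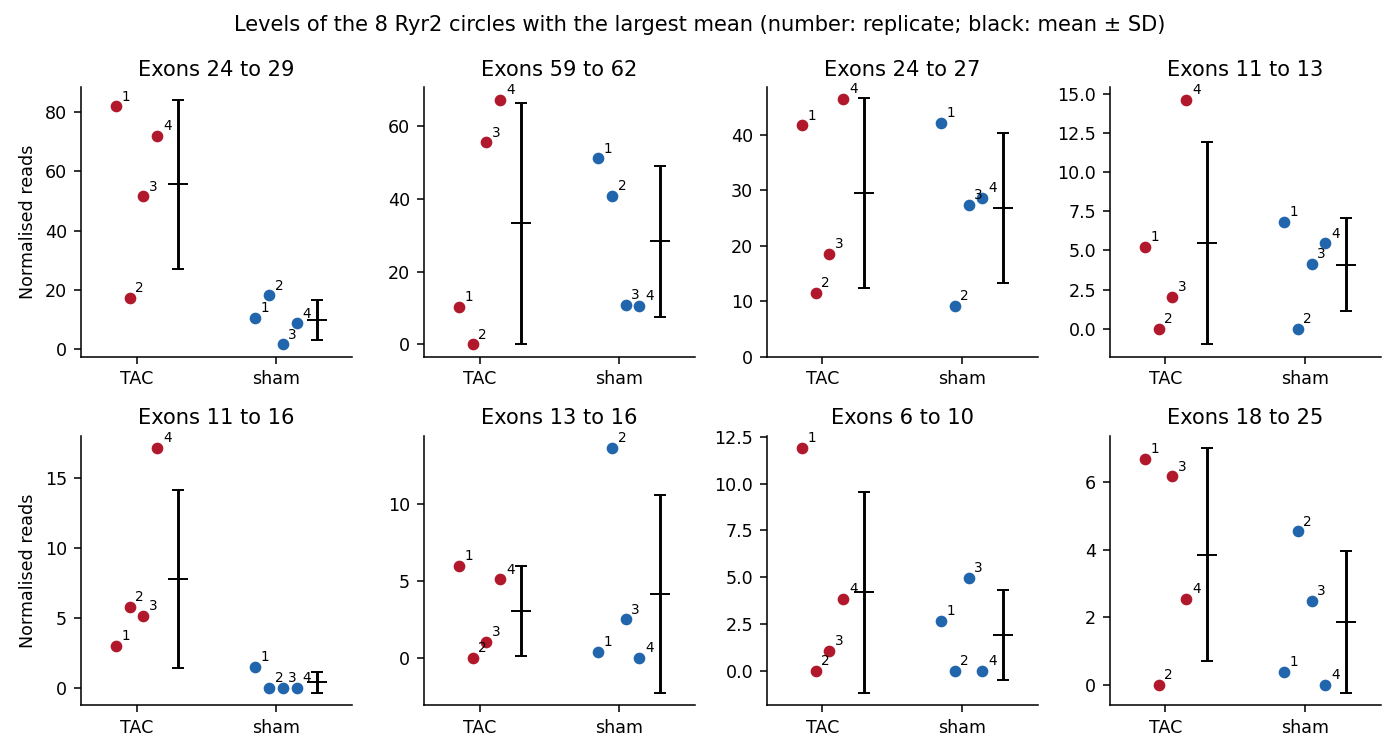
Normalised reads (y axis, a separate linear scale per panel) of the 8 Ryr2 circles with the largest mean, in 4 TAC and 4 sham libraries (points, numbered by replicate), with the mean ± SD in black. For exons 24 to 29 the TAC libraries lie at 17.3 to 81.8 and the sham libraries at 1.66 to 18.2, while the groups overlap widely for exons 59 to 62 and 24 to 27.

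Exons 24 to 27 form a circle with that same acceptor, and its 496 nt end at an earlier donor (chr13:11769852-11785141). With 442 it had the most reads of any Ryr2 circle, namely 56, 2, 18 and 73 in TAC replicates 1 to 4 and 111, 2, 33 and 147 in sham replicates 1 to 4. Its normalised levels were 41.6, 11.5, 18.5 and 46.4 in TAC, and 42.1, 9.09, 27.3 and 28.6 in sham. The groups overlapped throughout, and limma gave a log2 fold change of 0.12 ± 0.96 (adjusted p = 0.997) and edgeR one of −0.15 ± 0.76 (adjusted p = 0.928). Its direction thus turned with the test.

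Both circles were therefore set against each other within a library, where the size factor cancels. A library's length trend does not cancel, since the circles measure 880 and 496 nt. Exons 24 to 29 took 66.3, 60, 73.5 and 60.8% of the reads of the pair in TAC replicates 1 to 4, and 20.1, 66.7, 5.71 and 23.4% in sham replicates 1 to 4. The exception among sham libraries, replicate 2, rested on 6 reads (95% Wilson interval 29.999 to 90.3%), and TAC replicate 2 on 5 reads (23.1 to 88.2%). Sham replicate 2 also had the longest spliced length at the median read among sham libraries (491 nt), and TAC replicate 2 the shortest among TAC libraries (334 nt). In the other 6 libraries the intervals ran from 53.6 to 82.6% in TAC and from 1.58 to 29.9% in sham and did not overlap between the groups. Such intervals cover counting error only, since PCR copies are not independent molecules. This split was chosen after the values were seen and carries no test. The part of length in the split was not tested.

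**Figure D3:**
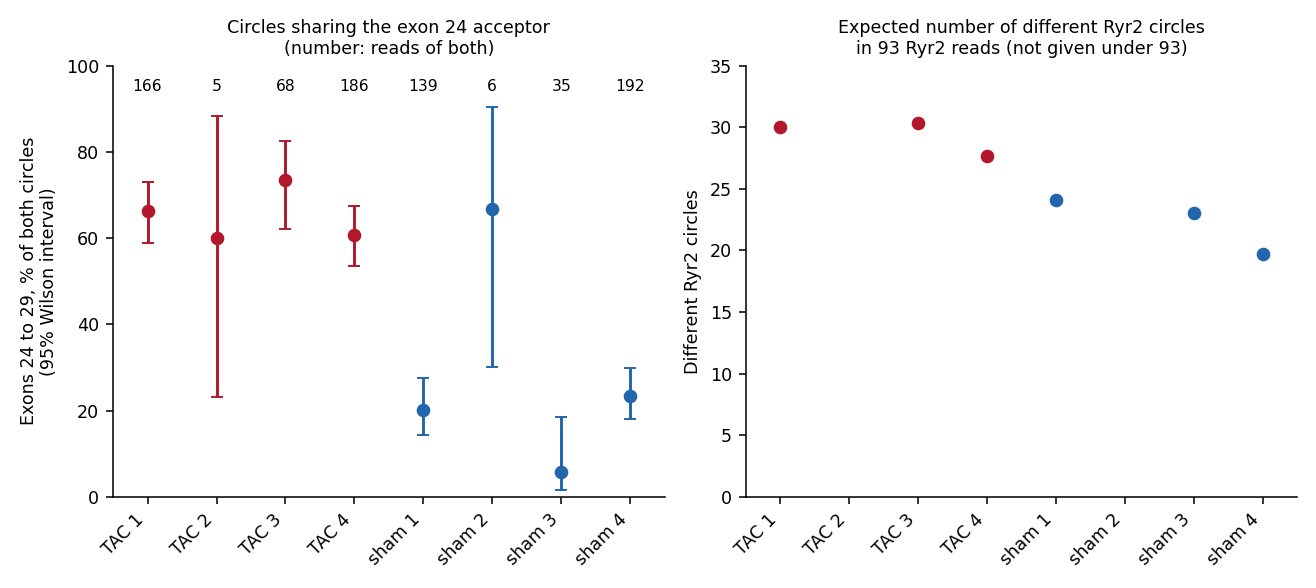
Left, the exon 24 to 29 circle as a percentage of its own reads plus those of exons 24 to 27 in each library, with 95% Wilson intervals and the number of reads of the pair above: TAC libraries stand at 60 to 73.5% and sham libraries at 5.71 to 23.4%, except for sham replicate 2 at 66.7% on 6 reads. Right, the number of different Ryr2 circles expected in 93 Ryr2 reads, for the 6 libraries that have as many: 27.7 to 30.4 in TAC and 19.7 to 24.1 in sham.

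As a share of all Ryr2 reads, the exon 24 to 29 circle took 35.3, 27.3, 24.5 and 22.8% in TAC replicates 1 to 4, against 6.59, 12.5, 2.15 and 8.72% in sham replicates 1 to 4. Every TAC library lay above every sham library. The circle was taken as the one with the largest mean over all 8 libraries. It owes that rank to TAC, since its sham mean of 9.80 normalised reads lay under those of exons 59 to 62 (28.4) and 24 to 27 (26.8). The means were 27.5 ± 5.51% in TAC and 7.49 ± 4.32% in sham (SD, n = 4 each), a difference of 19.98 percentage points (exact permutation test, two-sided, p = 0.0286, the smallest that 70 splits can give). The difference stayed between 17.4 and 21.6 percentage points when each library was left out in turn. Without both libraries under 5000 reads it was 21.7 percentage points, in a design whose smallest exact p is 0.1, the value obtained. Length was not corrected for in this share, and its part in the difference was not tested.

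Counted by exon, the gap between the groups was wider at exon 28 than at exon 24. Circles spanning exon 24 held 63.9, 45.5, 42.2 and 42.6% of exonic Ryr2 reads in TAC replicates 1 to 4 and 35.8, 25, 41.9 and 42.8% in sham replicates 1 to 4, so that the groups overlapped. Circles spanning exon 28 held 38.1, 45.5, 30.9 and 25.96% in TAC, against 8.49, 12.5, 4.30 and 9.496% in sham, and did not overlap. Of the 407 reads over exon 28, 355 were of the exon 24 to 29 circle itself, so this count restates its share.

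**Figure D4:**
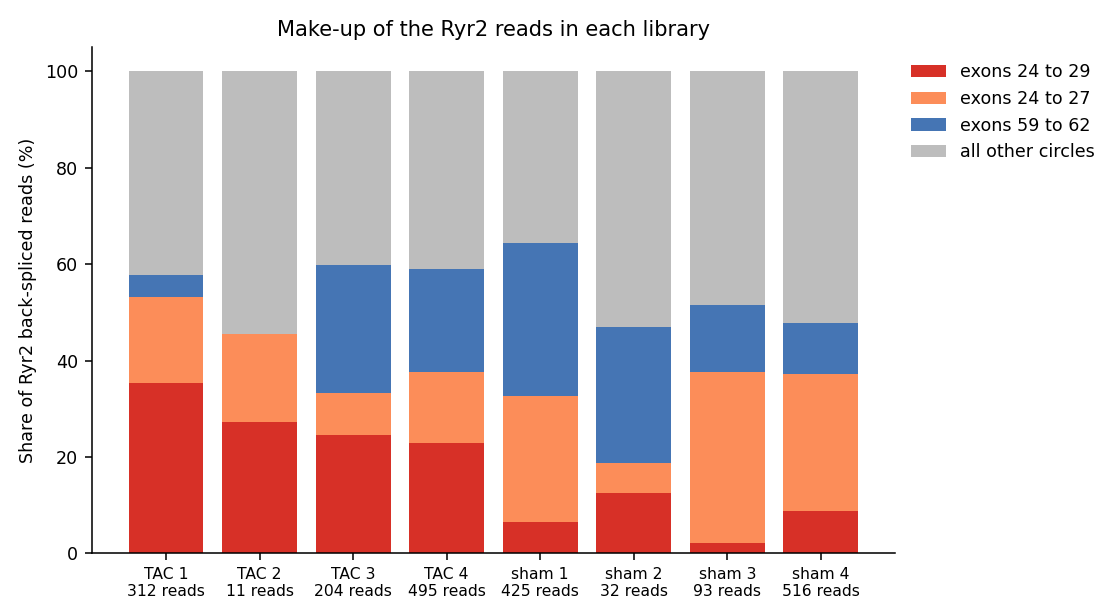
Percentage of the Ryr2 back-spliced reads of each library (bars, with the number of reads under each) taken by the 3 leading circles and by all others. The exon 24 to 29 circle takes 22.8 to 35.3% in TAC and 2.15 to 12.5% in sham, and exons 59 to 62 take no read in TAC replicate 2.

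Exons 59 to 62 (427 nt, chr13:11680966-11688013) gave the only circle at its acceptor. It had 14, 0, 54 and 106 reads in TAC replicates 1 to 4 and 135, 9, 13 and 55 in sham replicates 1 to 4, or 10.4, 0, 55.6 and 67.4 normalised reads in TAC and 51.2, 40.9, 10.8 and 10.7 in sham. High and low libraries stood in both groups. The limma log2 fold change was −1.25 ± 1.15 (adjusted p = 0.849) and that of edgeR 0.19 ± 0.76 (adjusted p = 0.905), and without TAC replicate 2, whose count was 0, limma gave 0.61. A count of 0 in that library allows up to 17.3 normalised reads (3 reads).

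Exons 11 to 17 form a second cluster of nested circles. The circle of exons 11 to 13 (397 nt) had 7, 0, 2 and 23 reads in TAC replicates 1 to 4 and 18, 0, 5 and 28 in sham replicates 1 to 4 (limma 0.02 ± 1.60 in log2, adjusted p = 0.999). Exons 11 to 16 (839 nt, chr13:11824274-11853190), with the same acceptor and a later donor, had 4, 1, 5 and 27 reads in TAC and 4, 0, 0 and 0 in sham. Its normalised levels were 2.97, 5.77, 5.15 and 17.2 in TAC and 1.52, 0, 0 and 0 in sham, so the groups did not overlap.

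The limma log2 fold change of the exon 11 to 16 circle was 4.27 ± 1.60 (adjusted p = 0.834), and it did not reach edgeR's filter on all 8 libraries. A count of 0 allows up to 13.6 normalised reads in sham replicate 2, so the separation there was not detectable at this depth. Without both libraries under 5000 reads limma called it higher in TAC (4.05 ± 1.09, adjusted p = 0.0367). Ending at the same donor, the circle of exons 13 to 16 (607 nt) had 8, 0, 1 and 8 reads in TAC replicates 1 to 4 and 1, 3, 3 and 0 in sham replicates 1 to 4 (0.23 ± 1.60, adjusted p = 0.997). Its log2 fold change without both libraries under 5000 reads was 2.35 ± 1.13 (adjusted p = 0.211), which did not pass.

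The remaining circles of the leading 8 were rarer. Exons 6 to 10 (464 nt) gave 16, 0, 1 and 6 reads in TAC replicates 1 to 4 and 7, 0, 6 and 0 in sham replicates 1 to 4 (limma log2 fold change 1.09 ± 1.58, adjusted p = 0.939). Exons 18 to 25 (1198 nt) gave 9, 0, 6 and 4 reads in TAC and 1, 1, 3 and 0 in sham (1.01 ± 1.60, adjusted p = 0.946). Neither differed beyond its error over 8 libraries, and the groups overlapped for both. Without both libraries under 5000 reads, exons 18 to 25 gave 2.88 ± 1.03 with limma (adjusted p = 0.0970) and 2.79 ± 1.17 with edgeR (adjusted p = 0.0825), and did not pass.

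The circles of exons 6 to 8 and 55 to 58 had more reads in sham, as had others, and were picked after their values were seen. Sham libraries held more reads over the whole table (162791 against 91445), and sham replicate 4 gave most of the sham reads of both circles. All 7 circles at the exon 6 acceptor had 42 reads in TAC and 61 in sham, and among them exons 6 to 10 had 23 and 13. Exons 6 to 8 (267 nt) had 1, 0, 1 and 1 reads in TAC replicates 1 to 4 and 3, 1, 2 and 36 in sham replicates 1 to 4. In normalised reads TAC libraries stood at 0 to 1.03 and sham libraries at 1.14 to 7.004, without overlap (limma log2 fold change −2.21 ± 1.59, adjusted p = 0.834). The 0 is that of TAC replicate 2, where it allows up to 17.3 normalised reads, so the separation was not detectable in that library. Exons 55 to 58 (382 nt) had 4, 0, 1 and 2 reads in TAC and 18, 0, 2 and 44 in sham, with overlap between the groups (−1.08 ± 1.60, adjusted p = 0.939). All 7 circles at the exon 55 acceptor together had 12 reads in TAC and 91 in sham. They made up 1.01 to 1.47% of Ryr2 reads in TAC replicates 1, 3 and 4 and 0 in TAC replicate 2, against 13.2% in sham replicate 4 and 0 to 4.94% in the other sham libraries.

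Of the 150 circles, 25 were above 0 in at least 4 libraries and so entered the limma test, and 0 passed, against 1 of 3735 circles overall (0.0268%). At an unadjusted p under 0.05 limma gave 2 Ryr2 circles, those of exons 11 to 16 and 24 to 29, and 152 circles overall (4.07%). Of the 25, 19 lay above 0 and 6 below on the log2 scale. Their median was 0.23, against 54.3% positive and a median of 0.15 over all circles tested. A circle seen only in TAC could enter only with reads in all 4 TAC libraries, so these counts describe the 25 that entered and not the 150. Overlap between the groups was absent for 2 of the 25 (exons 11 to 16, higher in TAC, and 6 to 8, lower), against 3.11% of all circles tested. In edgeR 1 of 4 tested Ryr2 circles was called, against 13.1% of 717 circles. DESeq2 called 1 as well, against 1.68% of the 1367 circles of the whole table that had an adjusted p. In each it was the circle of exons 24 to 29. The number of Ryr2 circles among those 1367 was not counted, so the DESeq2 call cannot be set against that share.

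Without both libraries under 5000 reads, limma called 5 of 37 Ryr2 circles higher in TAC and 0 lower, against 14.6% of all 5809 circles called higher. Besides exons 24 to 29 and 11 to 16, these were exons 18 to 29, 21 to 29 and 39 to 42, each with 0 reads in sham. In TAC replicates 1 to 4 exons 18 to 29 had 1, 0, 2 and 3 reads, exons 21 to 29 had 1, 0, 2 and 2, and exons 39 to 42 had 2, 0, 1 and 1. The filter alone fixed their separation. On those 6 libraries edgeR called 1 of 9, exons 24 to 29, against 16.4% called higher.

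Circles over 1000 nt, of which Ryr2 had 53, held 14.7, 18.2, 11.8 and 6.67% of Ryr2 reads in TAC replicates 1 to 4 and 3.29, 18.75, 4.30 and 0.775% in sham replicates 1 to 4. Sham replicate 2 was the highest of all. The means of 12.8 ± 4.88% in TAC and 6.78 ± 8.12% in sham (SD, n = 4 each) differed by 6.06 percentage points (exact permutation test, two-sided, p = 0.286). With a threshold of 800 nt the difference was 30.1 percentage points (exact p = 0.0286), but that class holds the exon 24 to 29 circle. Without this circle, those over 800 nt held 17.6, 27.3, 20.1 and 16.6% in TAC and 6.59, 21.9, 4.30 and 8.33% in sham, and the groups overlapped through sham replicate 2.

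Among the other ryanodine receptors, Ryr3 had 14 circles with 33 reads and Ryr1, the skeletal muscle form, had 0. A list of 71 genes of calcium release and calcium cycling was set beside Ryr2. Circles were found for 47 of them, and 33 had sums that entered the limma test, of which 1 passed higher in TAC and 0 lower, against 0.0337% of all host sums. On the log2 scale 18 of the 33 lay above 0 and 15 below, and their median was 0.40 against 0.13 over all hosts, of which 55.01% lay above 0. In edgeR 1 of 13 passed higher and 0 lower, against 3.33% of all hosts called higher, with a median of −0.01 against −0.03. With both libraries under 5000 reads left out, edgeR called 5 of 20. Slc8a1, Dysf and Ryr3 were higher (10.9% of all hosts called higher), and Asph and Atp2a2, the calcium pump of the reticulum, were lower (10.7% called lower). The groups overlapped for Asph and Atp2a2 in those libraries. Sham replicate 1 stood at 74.3 normalised reads for Asph, under the TAC libraries at 88.5 to 104.8. For Atp2a2 it stood at 14.4, within the TAC libraries at 9.26 to 14.6. On those 6 libraries limma called 5 of 36 higher and 0 lower, against 5.07% and 0.987% of all hosts. These were Slc8a1, Dysf, Cacna1c, Itpr2 and Ryr3.

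The gene that passed in both tests was Slc8a1, the sodium-calcium exchanger that removes calcium from the cardiomyocyte. Its sum stood at 548 ± 412 normalised reads in TAC and 105.9 ± 139 in sham (SD, n = 4 each; edgeR log2 fold change 2.37, adjusted p = 0.0173). The groups overlapped, with TAC replicate 2 at 63.5 and sham replicate 2 at 313. For host sums, too, the SE and p of limma follow the trend over all hosts, not a gene's own spread between mice. The next largest sums did not pass over 8 libraries. Asph, whose locus also encodes junctin, a partner of the receptor, averaged 83.1 ± 29.2 in TAC and 166 ± 162 in sham (edgeR −1.38, adjusted p = 0.161, or −1.46 and 0.0215 without both libraries under 5000 reads). Cacna1c, the pore subunit of the L-type channel, averaged 70.4 ± 26.2 in TAC and 36.0 ± 6.45 in sham (0.66, adjusted p = 0.564). Dysf, a membrane repair protein of muscle, averaged 47.9 ± 9.54 in TAC and 22.3 ± 9.83 in sham (0.93, adjusted p = 0.371, or 1.15 and 0.0109 without them).

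The hosts whose sums followed Ryr2 most closely over the 8 libraries were found by the root mean square difference of centred log2 levels, among 912 hosts above 0 in at least 7 libraries. They were Mettl9 (0.268), Clasp1 (0.293), Fhl2 (0.304), Myocd (0.336) and Nsd2 (0.336), against a median of 1.51 over all candidates. Mettl9 and Nsd2 are methyltransferases, Clasp1 binds microtubule ends, Fhl2 is a LIM-domain protein of heart muscle and Myocd a coactivator of muscle genes. Mettl9 stood at 98.9, 28.9, 73.1 and 82.0 normalised reads in TAC replicates 1 to 4 and at 48.9, 54.5, 21.5 and 30.9 in sham replicates 1 to 4. Like Ryr2, it was lowest among TAC libraries in replicate 2, which restates how it was chosen.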

How the data were processed

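The table deposited by the authors holds signal values. Each is a read count over a library's size factor (0.173 to 5.14), as follows from the values themselves, which were whole multiples of 1 step in each library (100% within 0.001). Whole reads were recovered from these steps. The submitters' processing notes name the build mm10 and, with no version or role, the tools DESeq2, HISAT2 and StringTie. Neither the program that called the circles nor the strand of the libraries is stated in the sources used here, and no linear reads were analysed. Since the unit was not raw counts, limma 3.58.1 with an intensity trend on log2(value + 0.195) was the main test, for circles or host sums with a value above 0 in 4 or more libraries. For rare circles with counts of 0, such fold changes depend on the added 0.195 and can differ from the ratio of means in size or sign. For exons 13 to 16 limma gave 0.23, with means of 3.02 normalised reads in TAC and 4.12 in sham. The edgeR 4.0.16 quasi-likelihood test (TMM after filtering, minimum count 5, minimum total 15) and DESeq2 1.42.0 were run on recovered reads. That edgeR test reports no SE. The value after ± for edgeR is the log2 fold change over the square root of the F statistic, an approximate SE. All fits used the whole table, with Benjamini-Hochberg adjustment and a threshold of 0.05. Shares were compared by exact permutation tests. Replicates are separate mice, 4 per group, numbered in accession order.

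Table coordinates, given from 1, were matched to GENCODE M21. Alternatives covered pseudocount, filter, scaling, test, the length trend (loess, span 0.5) and libraries left out. Numbers of circles at equal depth are hypergeometric expectations. Scripts were tested on simulated reads with large changes planted in abundant circles, which covers neither rare circles nor a length trend. Values in every library are given for the 8 Ryr2 circles with the largest mean, for those that passed limma or edgeR (reads for the rarest), and for the 2 with the smallest limma p. The members and lists were chosen with earlier results of these data known. Atrial, fibroblast, endothelial, smooth muscle and pericyte, leukocyte, and Schwann and neuronal markers had circles for 1 of 6, 10 of 14, 12 of 12, 4 of 9, 8 of 12 and 3 of 7 genes.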

Additional observations from a re-analysis of the deposited data

Results flagged for a closer look

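In 2 of 28 groups of 4 libraries checked, 1 library lay far from the others. Chance alone gives about 1 in 20 such groups. TAC replicate 4 had 1.37% of its back-spliced reads on Ryr2, against 0.942 to 0.983% in the other TAC libraries. For the circle of exons 11 to 16, sham replicate 1 stood at 1.52 normalised reads, with 0 in the other sham libraries. With the others at 0, any count above 0 meets the rule, so the rate of 1 in 20 does not hold there and the flag carries no weight. The 0 in sham replicate 2 allows up to 13.6 normalised reads.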

How the results depend on the processing

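Depth limited the values. Of the 150 Ryr2 circles 65 rested on 1 read, the shallowest library held 11 Ryr2 reads, and 1 read in it was worth 5.77 normalised reads. No paired analysis was run, since the groups are separate mice and the labels name no pairs. Where a result changed with a setting, the cause was not tested.

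The log2 fold change of the Ryr2 sum became a call without TAC replicate 2 and without both libraries under 5000 reads (1.21), and was 0.33 to 1.10 with 1 library left out. By edgeR the sum was called in none of the settings run (0.31 to 0.82, adjusted p = 0.159 to 0.899; 0.71 without both shallow libraries). That of the exon 24 to 29 circle (limma) became a call with edgeR (2.52 with TMM, 2.70 with RLE), DESeq2 (2.71), without TAC replicate 2 (3.15) and without both shallow libraries (3.58), and was 1.99 to 3.15 with 1 library left out. By edgeR it was 2.12 to 2.89 with 1 library left out and was not called with TMM before the filter (2.65).

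Ryr2 circles called numbered 1 with edgeR (TMM or RLE) and DESeq2, 5 without both shallow libraries and 0 to 1 with 1 library left out. By edgeR they numbered 0 with TMM before the filter and 0 to 2 with 1 library left out. Of all circles limma called 1, against 0 with the filter of 10 reads in 4 libraries, with TMM scaling or with the length trend removed, 1037 without both shallow libraries and 0 to 41 with 1 library left out. Of these, edgeR called 94 with TMM and 82 with RLE, and DESeq2 called 23. The edgeR count was 3 with TMM before the filter, 344 without both shallow libraries and 0 to 248 with 1 library left out. Of all hosts limma called 1, against 0 with the same filter or TMM scaling, 4 with library totals, 221 without both shallow libraries and 1 to 28 with 1 library left out. With edgeR 84 hosts were called (100 with RLE), and with DESeq2 30.

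The Ryr2 share differed by 0.243 to 0.452 percentage points with 1 library left out. The share of the exon 24 to 29 circle was 21.7 points higher without both shallow libraries (exact p = 0.1). With a threshold of 800 nt the share of long circles differed by 30.1 points.

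Several rare or overlapping circles changed sign. For exons 59 to 62 the log2 fold change was 0.19 with edgeR, 0.90 without both shallow libraries and −2.20 to 0.61 with 1 library left out. For exons 24 to 27 it was −0.15 with edgeR, −0.35 with the length trend removed and −0.33 to 0.49 with 1 library left out. With the length trend removed, exons 11 to 13 gave −0.053, exons 13 to 16 gave −0.52 and exons 18 to 25 gave −0.44. With 1 library left out, exons 11 to 13 gave −1.19 to 1.23 and exons 13 to 16 −0.73 to 1.32. The median over tested Ryr2 circles was −0.17 to 1.23 with 1 library left out. The length trend was not removed from host sums, which join circles of different length.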
